A study of Mus musculus with 20 samples.

Results

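The 35 genes described here keep protein folding in the endoplasmic reticulum (ER) in order: 8 stress sensors, transcription factors and phosphatase subunits, 10 chaperones and their partners, 6 lectins and disulfide isomerases, 8 genes of ER-associated degradation (ERAD) and 3 of protein translocation. They were picked by symbol from the 41115 genes of the count tables. All 35 were found, and all 35 were among the 12139 genes with at least 1 CPM (counts of a gene scaled to a fixed library size) in at least 3 of the 20 libraries. Derl3 passed with the fewest, reaching 1 CPM in 3 libraries.

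Poly-A RNA of mouse material labelled spleen was sequenced at 0 min, 15 min, 30 min, 1, 2, 3, 6, 12, 24 and 48 h in 2 arms of 10 libraries each. The stimulated arm carried LPS, IL4 and TGFb, a mixture used to induce AID (the enzyme of antibody class switching), and the other arm was untreated. By the design text 1 mouse served each arm, which means that a difference between arms and one between animals cannot be told apart. The labels used here name no strain, age or sex and do not say whether cells were kept in culture between times. The 0 min library of the stimulated arm bears the cocktail in its label too.

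With 1 library per arm and time, neighbouring times stood in for replicates: 15 min, 30 min and 1 h made up the early phase, the libraries at 2, 3 and 6 h the middle phase, and those at 12, 24 and 48 h the late phase. An SE therefore measures the spread between times, not between animals. Levels are CPM after TMM scaling, which adjusts for the make-up of each library. Fold changes are log2 values, given ± the SE of the fit. That SE draws on the spread within all phases of the fit, not only those compared, and in part on other genes. A gene that varied in a phase not compared can therefore still have a wide SE. A member was called when the adjusted p of edgeR's quasi-likelihood F-test over all 12139 genes was under 0.05.

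Totals ran from 36873155 to 60918651 counts per library. All 10 B cell marker genes were expressed, with summed levels of 2165 to 3291 CPM. The markers of other spleen cells were mixed. Of the T cell list 2 of 8 genes passed the filter (summed 10.7 to 22.3 CPM), with Lck at 6.53 to 20.9 CPM and Cd3e at most 0.223 CPM. Of the macrophage list 4 of 8 passed, with Csf1r at 13.8 to 42.6, Cd68 at 8.93 to 22.5 and Emr1 at 0.716 to 36.0 CPM, while Lyz2 reached at most 0.077 and Cd14 at most 0.0923 CPM. Of the dendritic cell list 3 of 5 passed, with Flt3 up to 32.7 and Zbtb46 up to 36.4 CPM and Itgax at most 0.593 CPM. No NK cell, neutrophil or erythroid gene passed the filter. Of the plasma cell list 6 of 9 genes passed the filter, with summed levels of 1234 to 1862 CPM. Igj was at 334 to 815, Mzb1 at 303 to 434, Irf4 at 283 to 762 and Ell2 at 138 to 305 CPM. Slamf7 was at 9.62 to 64.2 and Prdm1 at 3.57 to 35.6 CPM, while Sdc1 reached at most 0.177 and Tnfrsf17 at most 0.15 CPM. The plasma cell sum was 1234 to 1325 CPM early and 1586 to 1861 CPM late untreated, and 1309 to 1567 CPM early and 1403 to 1862 CPM late stimulated. In the late phase the B cell sum was lower in the stimulated arm (2165 to 2413 CPM) than in the untreated arm (2863 to 2942 CPM). The macrophage and dendritic cell sums were higher there, at 47.2 to 98.0 against 25.8 to 39.0 CPM and at 35.4 to 66.0 against 18.4 to 22.0 CPM. From the early to the middle phase the B cell sum went from 3123 to 3219 CPM down to 2649 to 2829 CPM untreated and from 3152 to 3291 CPM down to 2283 to 2751 CPM stimulated, and the stroma and endothelium sum (3 of 5 genes passing) from 12.7 to 15.2 CPM down to 5.89 to 8.72 CPM and from 13.7 to 15.7 CPM down to 6.08 to 10.2 CPM. The part of these markers in the differences between arms and between phases below was not tested, and in bulk RNA fewer cells of a type and less RNA per cell cannot be told apart. Sequencing lane 1 held only untreated libraries and lane 4 only stimulated ones, so lane and arm are largely confounded. The stimulated libraries at 2, 3 and 6 h were all in lane 4, so lane and phase are partly confounded as well.

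The unfolded protein response is the set of signals that an overloaded ER sends to the nucleus. Its sensors are IRE1 (gene Ern1), which splices Xbp1 messenger RNA into the form that encodes an active factor, PERK (Eif2ak3), which slows translation while letting Atf4 be translated, and ATF6, which is cut to release a transcription factor. Chaperones, isomerases and ERAD genes are their classic targets, and antibody-secreting cells depend on this machinery, XBP1 above all. Splicing, cleavage and phosphorylation do not show in counts per gene, so what follows concerns RNA levels alone.

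Promoters of these genes are known for the ER stress response element (ERSE), CCAAT and CCACG with 9 bases of any kind between them, which NF-Y binds together with ATF6 or XBP1. RefSeq promoters (GRCm38.p6, 250 bases before to 50 after the start) were found for 28 of the 35 members. On either strand, the promoters of 9 of these 28 members (32.1%) held an exact ERSE, against 0.119% of the 32851 promoters in the table. Shares of members were counted by gene and those of the table by promoter. Because the element is known from such genes, the contrast describes the list and is not a test. The shorter ERSE-II, ATTGG and CCACG with 1 base of any kind between them, was in those of Dnajb11 and Herpud1, which is 7.14% of 28 against 0.0365% of all. TTGCATCA, an element of the kind bound by ATF4 with C/EBP factors, was in 1 member promoter, that of Herpud1, against 0.895% of all. TGACGTGG, known as the UPR element, was in 0 of the 28 and in 0.676% of all. No match overlapped another.

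The sequences show the matched elements in capitals (the fixed letters only), 5′ to 3′ on the strand of the gene. Hspa5 and Herpud1 are given from 250 bases before the start up to the start, since the RNA of Hspa5 rose in both arms and that of Herpud1 fell in the stimulated arm, and the others as the match with its neighbouring bases. The regions are chr2:34771840-34772089 (plus strand) for Hspa5 and chr8:94386179-94386428 (plus) for Herpud1. They are chr10:86705521-86705668 (minus) for Hsp90b1, chr8:84847063-84847105 (minus) for Calr, chr11:50325788-50325830 (minus) for Canx and chr12:17266479-17266521 (plus) for Pdia6. Those of Dnajc3, Creld2, Dnajb11 and Syvn1, all on the plus strand, are chr14:118937815-118937857, chr15:88819508-88819550, chr16:22857840-22857867 and chr19:6046520-6046562. That of Derl3 is chr10:75893230-75893272 (plus).
Hspa5: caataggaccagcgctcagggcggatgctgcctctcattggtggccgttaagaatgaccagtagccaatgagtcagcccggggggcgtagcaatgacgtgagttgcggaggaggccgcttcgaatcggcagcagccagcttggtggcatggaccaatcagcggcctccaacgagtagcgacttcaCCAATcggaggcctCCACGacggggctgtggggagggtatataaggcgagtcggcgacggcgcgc
Herpud1: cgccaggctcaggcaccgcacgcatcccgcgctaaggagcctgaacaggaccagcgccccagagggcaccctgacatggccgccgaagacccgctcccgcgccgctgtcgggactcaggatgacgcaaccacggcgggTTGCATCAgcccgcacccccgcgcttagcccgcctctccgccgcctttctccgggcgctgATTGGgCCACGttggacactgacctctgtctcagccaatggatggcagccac
Hsp90b1: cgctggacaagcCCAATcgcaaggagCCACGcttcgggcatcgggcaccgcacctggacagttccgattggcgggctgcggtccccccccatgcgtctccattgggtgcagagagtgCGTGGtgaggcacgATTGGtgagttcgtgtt
Calr: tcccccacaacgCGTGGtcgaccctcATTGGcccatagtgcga
Canx: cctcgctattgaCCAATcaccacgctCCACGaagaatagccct
Pdia6: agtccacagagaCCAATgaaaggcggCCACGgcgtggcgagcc
Dnajc3: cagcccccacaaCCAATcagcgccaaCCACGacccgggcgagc
Creld2: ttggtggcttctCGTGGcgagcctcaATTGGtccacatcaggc
Dnajb11: tccccggcggcgATTGGcCCACGcctgg
Syvn1: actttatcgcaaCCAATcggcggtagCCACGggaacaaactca
Derl3: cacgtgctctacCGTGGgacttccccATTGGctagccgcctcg
The ERSE of Hspa5 lay 65 to 47 bases before the RefSeq start and that of Syvn1 44 to 26 bases before it. Hsp90b1 held 2 matches, in opposite orientations. The ERSE-II of Dnajb11 lay after the start, at bases 8 to 18.

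Per kilobase of exon, the members spanned a wide range of median levels over the 20 libraries. Hspa5 (BiP, the ER's HSP70) was highest at 464 CPM per kb, followed by Hsp90b1 (GRP94, its HSP90) at 389 and Calr (calreticulin, a lectin chaperone) at 347 CPM per kb. Canx (calnexin, its membrane-bound relative) and Pdia3, a disulfide isomerase that works with both lectins, came next with 201 and 200.1 CPM per kb, a difference smaller than their changes over time. The lowest were Ern1 at 3.39, Derl3 at 0.375 and Derl2 at 0.362 CPM per kb. Derl2 and Derl3, which encode derlins of the degradation channel, stayed between 2.10 and 3.84 CPM and between 0.297 and 1.21 CPM, and neither was called in any comparison.

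From the early to the middle phase most chaperones, lectins and isomerases among the members rose in both arms, while several regulators fell. In the list of other folding genes described at the end, 3 of 27 rose untreated and 6 of 27 stimulated, where 13.6% and 22.1% of all genes rose. In the untreated arm 16 members rose and 3 fell, against 13.6% and 11.9% of all 12139 genes. In the stimulated arm 17 rose and 7 fell, against 22.1% and 19.3% of all genes. Of these, 15 rose in both arms and 3 fell in both, and the median log2 change over the 35 members was 0.14 and 0.19, beside 0.00 over all genes in each arm. With the 1 h library moved to the middle phase and 6 h to the late phase, 0 members passed in either arm, where 0 genes of all passed in the untreated arm and 99 in the stimulated arm. Without the 30 min library, or without that at 3 h, 12 members passed in the untreated arm, where 690 and 876 of the 12139 genes passed. With library totals as the only scaling 15 rose and 3 fell untreated and 14 rose and 7 fell stimulated, and the share of all calls that were higher went from 53.4% to 42.2% and to 37.5%.

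**Figure D1:**
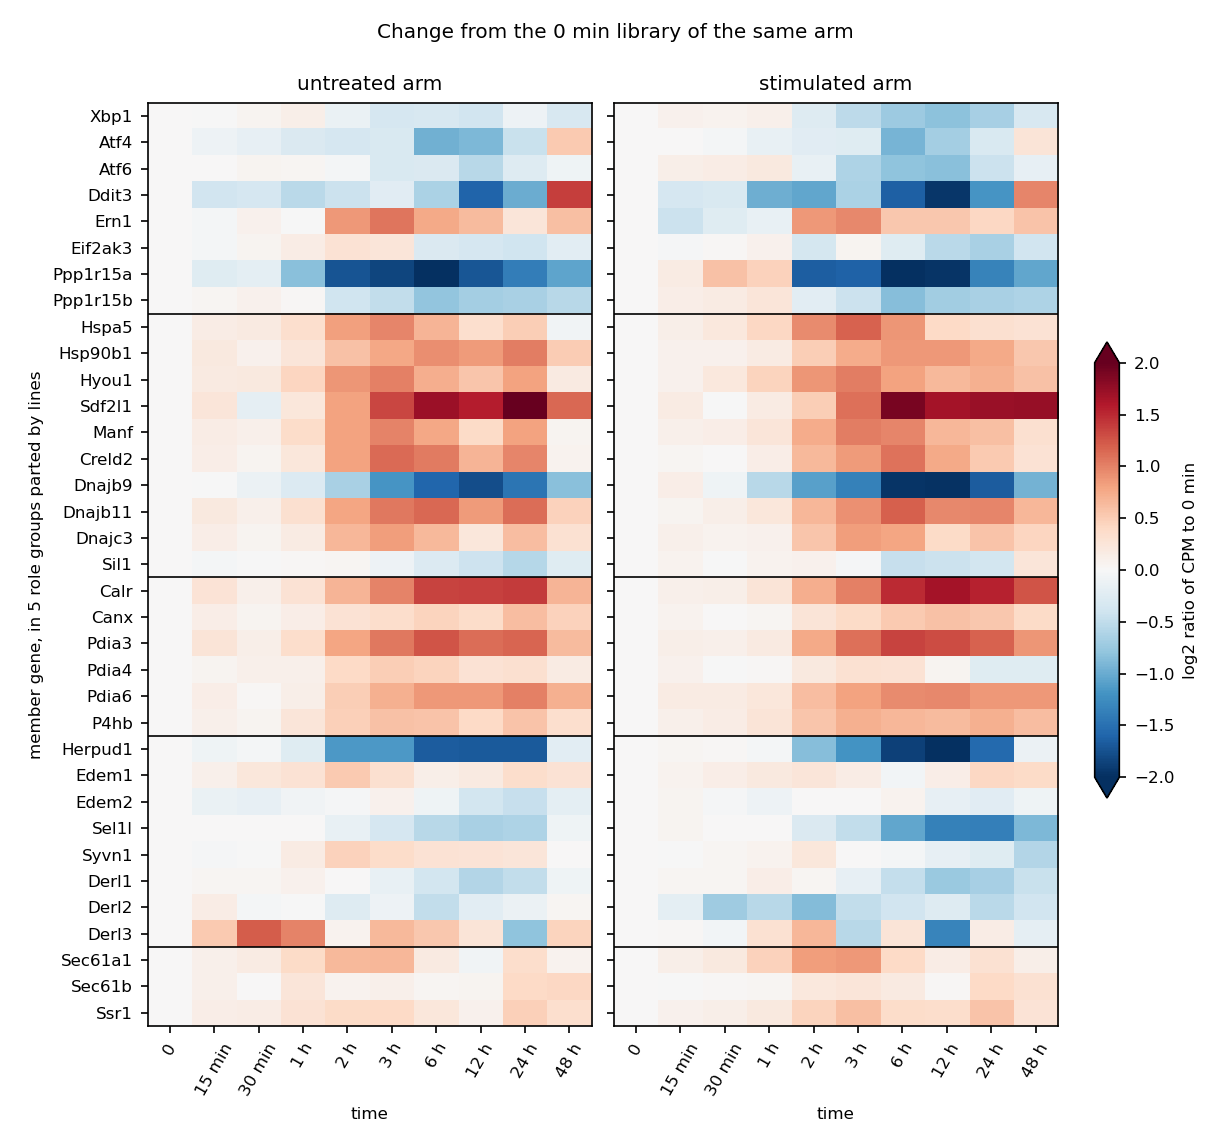
Log2 ratio of each member's CPM to the 0 min library of its own arm (colour), with times in columns and the 35 members in rows, 1 library per cell of the map. Most chaperones, lectins and isomerases turn red from 2 h on in both arms. Sil1 does not, and stimulated Pdia4 at 24 and 48 h and untreated Hspa5 at 48 h are below their 0 min levels. Ppp1r15a, Dnajb9 and Herpud1 turn blue, and Ddit3 is red in the last column, at 48 h.

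Among the chaperones 8 of 10 rose in both arms, Dnajb9 fell in both and Sil1 was not called in either. Hspa5 stood at 1552 CPM at 0 min in the untreated arm, at 1722, 1751 and 1958 CPM over the first hour and at 2742, 3066 and 2480.5 CPM at 2, 3 and 6 h. The stimulated Hspa5 values were 1504 CPM at 0 min, then 1623, 1739.8 and 1998 CPM, then 2884, 3403 and 2760.0 CPM. The early and middle values did not overlap in either arm, and the rise was 0.61 ± 0.13 (adjusted p = 0.0054) untreated and 0.75 ± 0.13 (adjusted p = 0.00063) stimulated.

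Sdf2l1, a stress-inducible partner of BiP and its J proteins, had the largest log2 rise of the members in both arms. Untreated libraries held 34.3 CPM of Sdf2l1 at 0 min, 40.5, 30.4 and 40.1 CPM in the first hour, 60.2, 87.0 and 112 CPM at 2, 3 and 6 h, and 102, 139.7 and 76.4 CPM at 12, 24 and 48 h. Stimulated libraries held 32.8 CPM at 0 min, then 36.9, 32.5 and 36.7, then 46.1, 70.3 and 123, then 104, 108 and 109.7 CPM. The change of Sdf2l1 from early to middle was 1.22 ± 0.30 (adjusted p = 0.0099) and 1.17 ± 0.30 (adjusted p = 0.0061). Without the 30 min library the untreated rise no longer passed.

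The other chaperones that rose were Hsp90b1, Hyou1 (GRP170, which exchanges nucleotides on BiP), Manf and Creld2 (small secreted stress proteins), and the J proteins Dnajb11 and Dnajc3. Their log2 rises lay between 0.59 (Hsp90b1) and 0.86 (Creld2) in the untreated arm and between 0.59 (Hsp90b1) and 0.81 (Creld2) in the stimulated arm. Hyou1 and Manf no longer passed in the untreated arm without the 30 min or the 3 h library.

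Dnajb9 (ERdj4), a J protein that is a textbook target of XBP1, went the other way from the rest of its group. In the untreated arm it fell from 63.0 CPM at 0 min and 62.4, 58.2 and 52.3 CPM over the first hour to 40.3, 27.7 and 21.0 CPM at 2, 3 and 6 h, and it stood at 18.4, 22.8 and 35.2 CPM at 12, 24 and 48 h. Stimulated levels of Dnajb9 were 76.7 CPM at 0 min, then 84.4, 72.3 and 52.3, then 36.1, 29.9 and 19.7, then 19.6, 24.1 and 39.9 CPM. The log2 change was -0.96 ± 0.31 (adjusted p = 0.035) untreated and -1.29 ± 0.31 (adjusted p = 0.0048) stimulated. The untreated call was lost without any 1 of the 15 min, 30 min, 1 h, 3 h and 6 h libraries.

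Each of the 6 lectins and isomerases rose in both arms. Calr went from 624 CPM at 0 min and 756, 667 and 767 CPM in the first hour to 1002, 1243 and 1595 CPM at 2, 3 and 6 h of the untreated arm, followed by 1607, 1643 and 996 CPM at 12, 24 and 48 h. The stimulated arm gave 594 CPM of Calr at 0 min, then 637, 648 and 711, then 984, 1191 and 1680.4, then 1874, 1735 and 1415 CPM. The Calr rise was 0.81 ± 0.21 (adjusted p = 0.014) and 0.95 ± 0.21 (adjusted p = 0.003), and the untreated one was lost without the 15 min, 30 min or 3 h library. Pdia3 rose by 0.80 and 0.95, Pdia6 by 0.61 in each arm, P4hb (the founding disulfide isomerase) by 0.41 and 0.48, Canx by 0.26 and 0.35, and Pdia4 by 0.36 and 0.23, untreated first. The untreated rise of Canx and the stimulated rise of Pdia4 were lost in 8 and 9 of the 14 alternatives run.

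**Figure D2:**
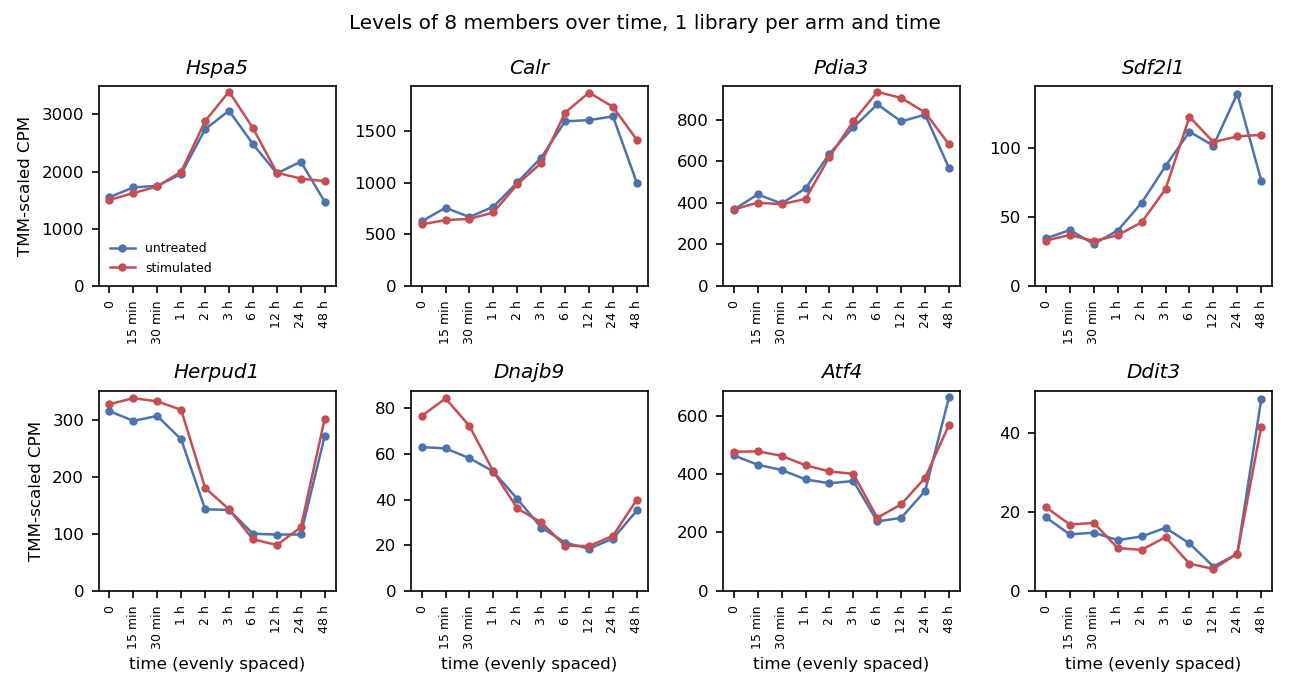
TMM-scaled CPM of 8 members against time (evenly spaced positions, not to scale), with 1 point per library, untreated in blue and stimulated in red. Hspa5 peaks at 3 h in both arms (3066 and 3403 CPM), Herpud1 and Dnajb9 are lowest at 12 h, and Ddit3 and Atf4 are highest at 48 h.

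Of the 8 sensors and regulators, Ern1 rose in both arms. Ern1 read 20.02 CPM at 0 min and 19.5, 21.2 and 19.9 CPM in the first hour untreated, 36.7, 42.1 and 33.8 CPM at 2, 3 and 6 h, and 31.1, 23.6 and 30.4 CPM at 12, 24 and 48 h. The stimulated arm had 19.9 CPM at 0 min, then 14.8, 16.8 and 17.95, then 36.4, 38.9 and 29.1, then 28.9, 26.6 and 29.6 CPM. Early and middle levels of Ern1 did not overlap, and its change was 0.89 ± 0.13 (adjusted p = 0.0011) and 1.08 ± 0.13 (adjusted p = 7.2e-05).

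Ppp1r15a (GADD34) and Ppp1r15b (CReP) encode the subunits that bring a phosphatase to eIF2 and so lift the translational block set by PERK. Both fell in both arms. Untreated Ppp1r15a was at 79.4 CPM at 0 min, at 67.3, 69.5 and 44.7 CPM in the first hour, at 24.1, 22.3 and 19.8 CPM from 2 to 6 h and at 24.3, 30.4 and 38.2 CPM from 12 to 48 h. Stimulated Ppp1r15a was at 95.8 CPM at 0 min, then 108, 144 and 132, then 30.5, 31.3 and 20.4, then 24.6, 38.0 and 46.8 CPM. Stimulated values were highest at 30 min, and the early to middle change was -1.45 ± 0.24 untreated (adjusted p = 0.0017) and -2.22 ± 0.25 stimulated (adjusted p = 3e-05). Ppp1r15b fell by 0.60 and 0.65.

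Xbp1, Atf6, Herpud1 and Sel1l fell past the test in the stimulated arm, and Sec61a1 and Ssr1, which serve the translocation channel, rose past it there. In the untreated arm these 6 did not pass, while Syvn1 rose. Of the 14 alternatives run, 7 ended the call of Sec61a1, 6 those of Herpud1 and of Syvn1 and 5 those of Sel1l and Ssr1, each including single libraries left out, while Xbp1 and Atf6 lost theirs in 1, with moved phase limits. The difference between the arms passed its own test for Atf6 and Syvn1 only, as given below. It did not for Sel1l (-0.28 ± 0.09, adjusted p = 0.084), Xbp1 (-0.27 ± 0.13, adjusted p = 0.24), Herpud1 (-0.11 ± 0.14, adjusted p = 0.68), Ssr1 (0.20 ± 0.08, adjusted p = 0.14) or Sec61a1 (0.17 ± 0.07, adjusted p = 0.17). Herpud1, a membrane protein that gathers ERAD factors, stood at 315 CPM at 0 min untreated, at 298, 307 and 266 CPM early, at 143, 142 and 99.97 CPM in the middle and at 98.5, 98.7 and 272 CPM late. Stimulated Herpud1 read 328 CPM, then 338, 333 and 318, then 181, 143 and 90.2, then 80.1, 111 and 302 CPM. The 3 values of the middle phase were under the early ones in each arm. Its early to middle change was -1.18 ± 0.44 (adjusted p = 0.058) untreated and -1.26 ± 0.44 (adjusted p = 0.031) stimulated. The stimulated call was lost without any 1 of the 15 min, 30 min, 1 h, 3 h and 6 h libraries (log2 from -1.90 to -0.65 over the alternatives).

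The change by promoter element is a description of this list. Of the 9 members with an ERSE, 8 rose from early to middle in the untreated arm and 7 in the stimulated arm, and Derl3, at 0.297 to 1.21 CPM, was called in neither. Of the 17 members whose promoter held neither ERSE nor ERSE-II, 5 rose and 2 fell untreated, and 6 rose and 4 fell stimulated. The median change was 0.60 and 0.61 for the ERSE members against 0.05 and -0.02 for those with neither element. Element and role go together in this list. Apart from Syvn1 and Derl3, the ERSE members are chaperones, lectins or isomerases. The sensors and regulators Xbp1, Atf4, Ddit3, Ern1, Eif2ak3 and Ppp1r15a are among those with neither element. The part of role in these medians was not tested. The 2 ERSE-II members split: Dnajb11 rose by 0.80 and 0.81, and Herpud1 had the negative values above. Ern1, Sdf2l1, Pdia3, Pdia4 and P4hb rose in both arms without an exact match in this window, which says nothing about what binds there.

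**Figure D3:**
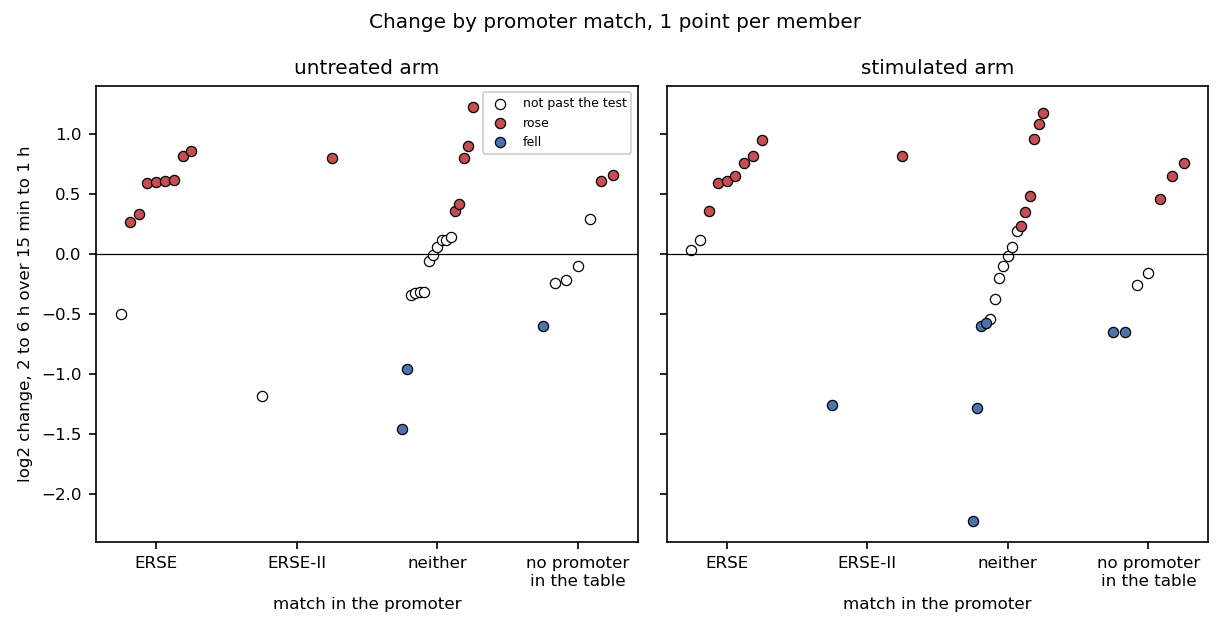
Log2 change from 15 min to 1 h to 2 to 6 h (vertical axis) for each member, by the element matched in its RefSeq promoter (horizontal axis), untreated on the left and stimulated on the right. Filled points passed the test. The 9 ERSE members lie above 0 except Derl3 in the untreated arm, while the 17 with neither element spread from -2.22 to 1.22 over the 2 arms.

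From the middle to the late phase little passed. In the untreated arm 0 members rose and 2 fell, against 6.19% and 5.83% of all genes. In the stimulated arm 0 rose and 6 fell, against 11.5% and 10.1% of all genes. Hspa5 fell in both arms, by 0.56 ± 0.13 (adjusted p = 0.014) and 0.67 ± 0.13 (adjusted p = 0.0031). Its levels at 12, 24 and 48 h were 1968, 2174 and 1471 CPM untreated and 1981, 1877 and 1833 CPM stimulated, all under the 2 to 6 h values of the same arm. The untreated call was lost without the 2 h or the 3 h library, with moved phase limits and with a lane term. With the lane term 1 of the 12139 genes passed in this untreated comparison, against 1459 without it. The stimulated call was lost with moved phase limits only.

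Edem2, a lectin-like ERAD protein that acts on mannose trimming, also fell in the untreated arm, by 0.33 ± 0.08 (adjusted p = 0.02). It was at 66.5 CPM at 0 min, at 60.7, 59.4 and 63.2 CPM early, at 65.1, 70.6 and 62.6 CPM in the middle and at 51.5, 48.1 and 57.9 CPM late. Stimulated Edem2 read 65.1 CPM at 0 min, then 67.4, 64.0 and 60.8, then 65.5, 65.7 and 68.4, then 58.3, 55.5 and 61.5 CPM, with no call. The untreated call was lost in 8 of the 14 alternatives run. These were without the 2, 3, 12 or 24 h library, and with no filter, a lane term, moved phase limits or that arm alone.

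Under the cocktail Sel1l (-0.62 ± 0.18), Sec61a1 (-0.52 ± 0.16), Derl1 (-0.42 ± 0.14), Pdia4 (-0.40 ± 0.08) and Syvn1 (-0.39 ± 0.11) fell as well, with adjusted p from 0.004 to 0.043. Of the 14 alternatives run, 7 ended the call of Derl1, 6 that of Sel1l, 4 that of Sec61a1, 3 that of Syvn1 and 1 that of Pdia4. Without the 6 h libraries 7 members were called untreated and 11 stimulated, where 3843 and 4846 of the 12139 genes were called. Without those at 3 h it was 0 and 2 members, where 93 and 808 genes of all were called. With library totals 5 fell in the untreated arm, where 1462 genes of all were called. The share of all calls there that were higher went from 51.5% to 38.7%.

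The 2 arms were set against each other with libraries paired by time. In the early phase 1 member, Ppp1r15a, was higher under the cocktail and 0 were lower, against 0.593% and 1.59% of all genes. The median log2 difference of the members was -0.02, beside 0.01 over all genes. Ppp1r15a differed by 1.10 ± 0.14 (adjusted p = 0.0041), with 3 of 3 stimulated early values (108 to 144 CPM) above the untreated ones (44.7 to 69.5 CPM). At single times, on the log2(CPM + 0.5) scale, the Ppp1r15a difference was 0.27 at 0 min, 0.68 at 15 min, 1.05 at 30 min, 1.55 at 1 h and 0.33 at 2 h. Taken relative to the 0 min pair the early difference was 0.82 and did not pass (adjusted p = 1, where 0 genes of all passed), and it was lost without the 30 min libraries.

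In the middle phase 1 member was higher under the cocktail and 5 were lower, against 10.2% and 10.2% of all genes. Lower were Ddit3, Syvn1, Atf6, Sel1l and Edem1, and higher was Sec61b. The median difference over the 35 members was 0.01, beside 0.01 over all genes. Without the 2 h, the 3 h or the 6 h libraries 3 members passed each time, where 1695, 933 and 1351 of the 12139 genes passed. Relative to the 0 min pair no member passed, against 43 of all genes. With library totals as the only scaling 0 members were higher and 9 lower, and 25% of all calls were higher, against 50% with TMM.

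Ddit3 (CHOP), a transcription factor tied to prolonged stress and cell death, differed by -0.47 ± 0.12 (adjusted p = 0.021). Untreated it was at 18.6 CPM at 0 min, at 14.2, 14.7 and 12.8 CPM early, at 13.7, 15.9 and 12.0 CPM at 2, 3 and 6 h and at 6.09, 9.34 and 48.5 CPM late. Stimulated Ddit3 read 21.1 CPM at 0 min, then 16.7, 17.2 and 10.8, then 10.3, 13.6 and 6.82, then 5.49, 9.35 and 41.6 CPM. The middle values overlap between the arms, and the call was lost without the 2 h or the 6 h libraries. A part of the Ddit3 exons overlaps Mars (68 bases) and Gm4189 (13 bases) on the opposite strand. Another 105 bases are shared with a second gene model on the same strand that is also named Ddit3. The labels do not say whether the counting used strand.

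Sec61b, the beta subunit of the translocation channel, was higher by 0.16 ± 0.05 (adjusted p = 0.042). Its middle values were 90.6, 92.7 and 88.7 CPM stimulated against 81.3, 82.9 and 80.0 CPM untreated, with no overlap. The other times gave 78.7 CPM at 0 min, 78.6, 79.6 and 80.9 CPM early and 80.1, 104 and 97.4 CPM late in the stimulated arm, and 77.6 CPM, then 83.6, 78.3 and 92.2 CPM, then 81.0, 103 and 104 CPM in the untreated arm. This call failed in 11 of the 12 alternatives run.

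Edem1, which draws misfolded glycoproteins out of the folding cycle, was lower by 0.16 in the middle phase (log2 -0.16 ± 0.04, adjusted p = 0.028). Untreated Edem1 was at 133 CPM at 0 min, at 143, 156 and 162 CPM early, at 190.2, 166 and 144 CPM in the middle and at 149.8, 169 and 162 CPM late. Stimulated Edem1 was at 137 CPM, then 143, 151 and 156, then 162, 151 and 132, then 151, 183 and 178 CPM. The middle values overlap, and the call was lost in 8 of 12 alternatives, among them those without the 2, the 3 or the 6 h libraries and with no filter. The late difference was 0.08 ± 0.04 (adjusted p = 0.19).

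In the late phase 2 members were higher under the cocktail, Calr and Sil1, and 7 were lower, Sel1l, Syvn1, Xbp1, Pdia4, Atf6, Derl1 and Hsp90b1. Without the 24 h libraries the split was 5 higher and 4 lower, with 5 of the 9 calls shared, and with RLE scaling 4 and with no filter 5 were higher beside 7 lower. Of all genes 3088 of 12139, 4427 of 12139 and 4802 of 28029 were called, in that order. Without these changes 17.8% of all genes were higher and 18.2% lower, so that the count of lower members is near the background and that of higher members under it. The median difference over the members was 0.03, beside 0.00 over all genes. The largest negative differences were in the 2 core subunits of one ERAD ubiquitin ligase.

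Syvn1 (HRD1) is the ubiquitin ligase of the ER membrane that marks misfolded proteins for the proteasome, and Sel1l is the adaptor that holds it stable and brings it substrates. Sel1l stood at 555 CPM at 0 min in the untreated arm, at 558, 559 and 558 CPM early, at 499.7, 442 and 379 CPM in the middle and at 354, 363 and 523 CPM late. Stimulated Sel1l was at 569 CPM at 0 min, then 593, 570.4 and 572, then 467, 404 and 275, then 222, 220.0 and 304 CPM. Levels were lower after the first hour in both arms and lower still under the cocktail, and the late values did not overlap. The late difference was -0.74 ± 0.06, 1.66-fold lower (adjusted p = 1.1e-05). At single times the log2 difference of Sel1l was 0.04 at 0 min, -0.10 at 2 h, -0.13 at 3 h, -0.46 at 6 h, -0.67 at 12 h, -0.72 at 24 h and -0.78 at 48 h.

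Syvn1 read 199 CPM at 0 min untreated, 196, 198 and 222 CPM early, 273, 256 and 244 CPM in the middle and 240.1, 236 and 201 CPM late. Stimulated Syvn1 was at 184 CPM at 0 min, then 184, 189 and 193, then 215, 186 and 179, then 165, 157 and 123 CPM. The untreated arm rose and stayed up until 24 h, while the stimulated arm ended lowest at 48 h, with no overlap in the middle or the late phase. The difference was -0.41 ± 0.05 in the middle phase (adjusted p = 0.00034) and -0.62 ± 0.05 in the late phase (adjusted p = 7e-06). Syvn1 shares 1.87% of its exon bases with Mrpl49 on the opposite strand.

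Sel1l and Syvn1 passed in the late phase under each alternative but 1. Relative to the 0 min pair, where 2 of the 35 members and 847 of the 12139 genes passed, they were the 2, at -0.76 (adjusted p = 0.0067) and -0.50 (adjusted p = 0.014). With times unpaired and a lane term the values were -1.05 and -0.58, each with adjusted p = 0.07, and 0 members passed, against 284 of all genes. Derl1, which helps form the channel through which ERAD substrates leave, was lower by 0.20 (log2 -0.20 ± 0.05, adjusted p = 0.0089).

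Derl1 stood at 279 CPM at 0 min, at 285, 288 and 296 CPM early, at 279, 252 and 216 CPM in the middle and at 185, 199 and 263 CPM late in the untreated arm. Stimulated Derl1 read 287 CPM, then 294, 296 and 314, then 294, 256 and 207, then 172, 181 and 211 CPM. The late ranges overlap although each stimulated value is under the untreated one of its time, and the call was lost without the 48 h libraries.

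**Figure D4:**
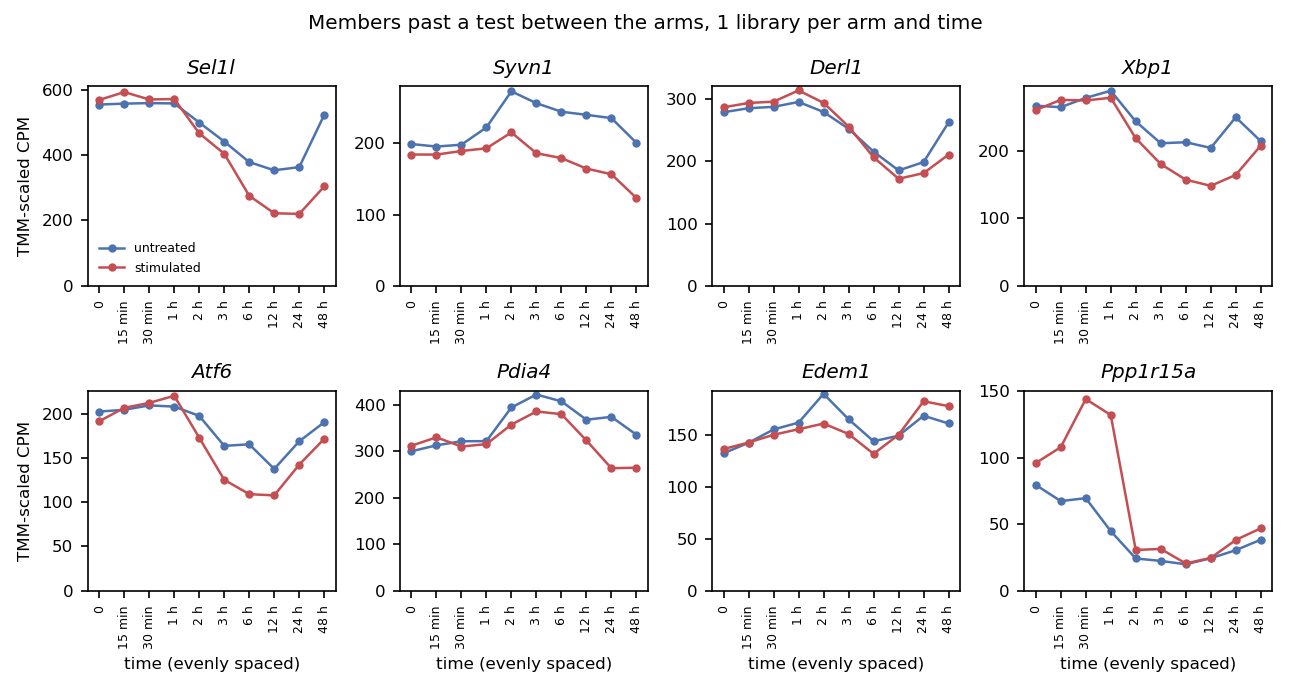
TMM-scaled CPM of 8 members called between the arms, against time (evenly spaced positions, not to scale), 1 point per library, untreated in blue and stimulated in red. Sel1l and Syvn1 part from 6 h and 2 h on (late ranges 220.0 to 304 against 354 to 523 CPM and 123 to 165 against 201 to 240.1 CPM), and Ppp1r15a is apart in the first hour.

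Xbp1, the factor spliced by IRE1, was lower in the late phase by -0.38 ± 0.09 (adjusted p = 0.0077). It was at 268 CPM at 0 min untreated, at 265, 279 and 289.7 CPM early, at 244, 212 and 213 CPM in the middle and at 205, 250.3 and 215 CPM late. Stimulated Xbp1 read 261 CPM, then 276, 275 and 279, then 219, 181 and 158, then 148, 165 and 208 CPM. The 48 h libraries were nearly level, and without those at 24 h the call was lost.

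Atf6 was lower in both the middle (-0.39 ± 0.07, adjusted p = 0.0038) and the late phase (-0.26 ± 0.07, adjusted p = 0.014). Untreated Atf6 was at 203 CPM at 0 min, at 205, 209.8 and 208 CPM early, at 198, 164 and 166 CPM in the middle and at 138, 169 and 191 CPM late. Stimulated Atf6 was at 192 CPM, then 207, 213 and 221, then 173, 126 and 109, then 108, 143 and 172 CPM. Each stimulated value from 2 h on is under the untreated one of its time, and the late call was lost without the 12 h or the 24 h libraries.

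Atf4, the factor translated under PERK signalling, was not called in any comparison. Its levels were 465 CPM at 0 min, 433, 415 and 382 CPM early, 369, 377 and 238 CPM in the middle and 250.04, 343 and 665 CPM late in the untreated arm. Stimulated Atf4 read 477 CPM, then 479, 463 and 431, then 409.6, 401 and 250.2, then 297, 388 and 570.4 CPM. Both arms had their lowest value at 6 h and their highest at 48 h.

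Pdia4, a disulfide isomerase with an extra thioredoxin domain, differed by -0.35 ± 0.06 in the late phase (adjusted p = 0.0006). Untreated Pdia4 was at 299.6 CPM at 0 min, at 312, 321 and 321 CPM early, at 394, 422 and 407 CPM in the middle and at 368, 374 and 335 CPM late. Stimulated Pdia4 was at 312 CPM, then 329.7, 309.8 and 315, then 357, 385 and 379, then 323, 263 and 264 CPM. The late values did not overlap. Relative to the 0 min pair the difference was -0.40 (adjusted p = 0.057).

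Hsp90b1 was lower by 0.16 in the late phase (log2 -0.16 ± 0.06, adjusted p = 0.042). It read 1126 CPM at 0 min, 1291, 1194 and 1326 CPM early, 1690.0, 1921 and 2136 CPM in the middle and 2025, 2287 and 1593 CPM late untreated, and 1059 CPM, then 1122, 1122 and 1190.2, then 1487, 1763 and 1927, then 1924, 1797 and 1544 CPM stimulated. The arms overlap, the 0 min pair was already apart in the same direction, and the call was lost without the 24 h libraries. Transcripts of other genes overlap 15.7% of the exon bases of Hsp90b1.

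Higher in the late phase were Calr (0.26 ± 0.07, adjusted p = 0.017) and Sil1, which exchanges nucleotides on BiP (0.28 ± 0.09, adjusted p = 0.035). Sil1 was at 30.1 CPM at 0 min, at 29.2, 30.1 and 30.7 CPM early, at 31.0, 28.0 and 24.998 CPM in the middle and at 22.7, 20.3 and 25.5 CPM late untreated. Stimulated Sil1 was at 31.6 CPM, then 33.3, 31.2 and 33.2, then 33.6, 31.2 and 22.8, then 23.4, 24.4 and 37.3 CPM. Both genes overlap between the arms, with stimulated above untreated at each of the 3 late times. Without the 48 h libraries both calls were lost, and that of Sil1 was also lost without those at 24 h, with library totals and with moved phase limits (7 of 12 alternatives, log2 down to 0.09). Antisense transcripts overlap 5.7% of the exon bases of Sil1.

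**Figure D5:**
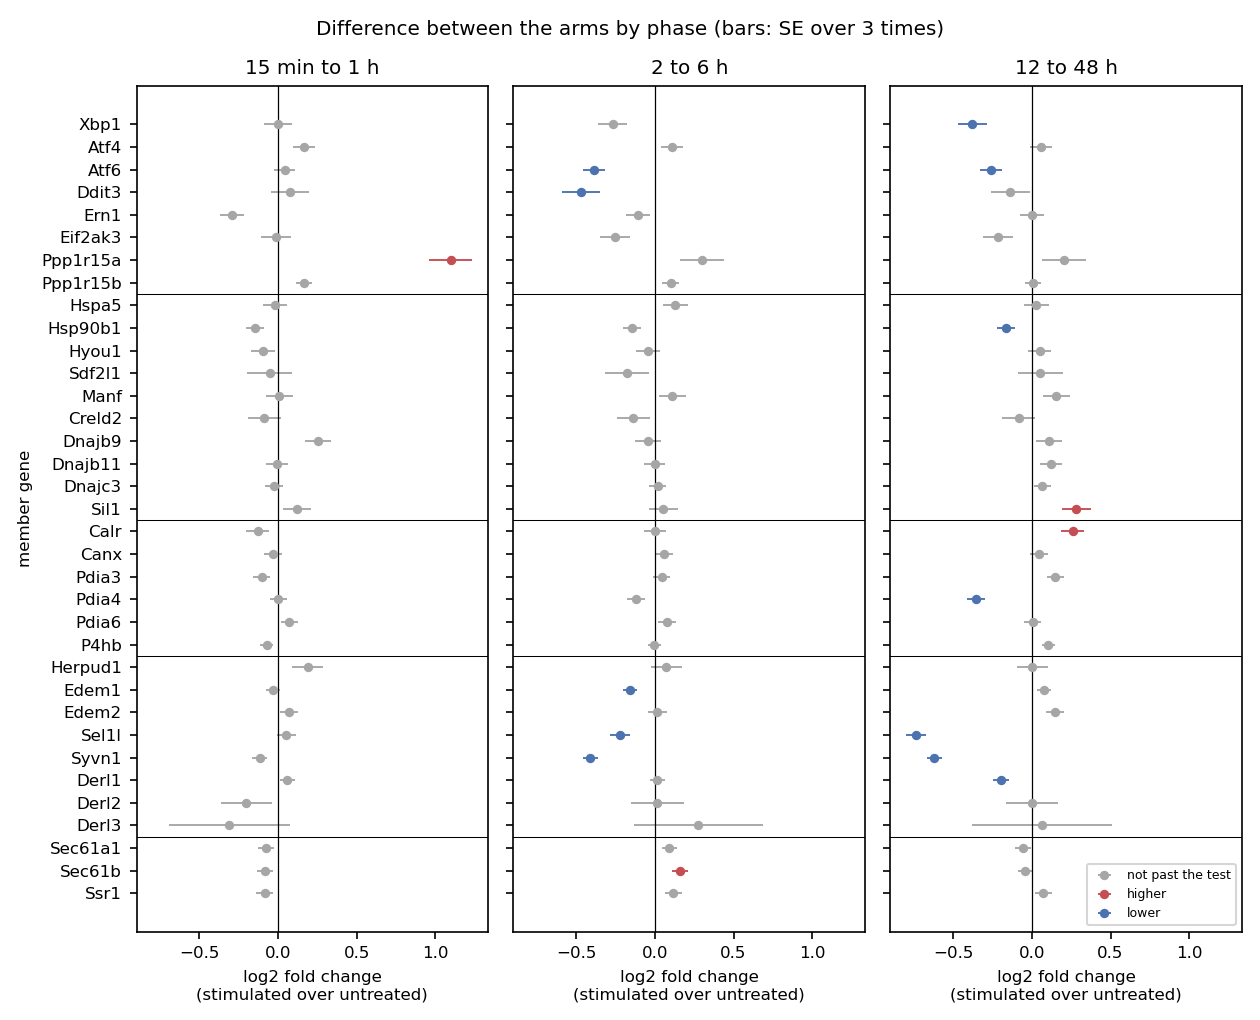
Log2 difference, stimulated over untreated (horizontal axis), for the 35 members in 3 phases of 3 times each. Bars are 1 SE of the fit to all 3 phases, and red is higher, blue lower and grey not past the test. Ppp1r15a stands alone in the first panel at 1.10, and Sel1l (-0.74) and Syvn1 (-0.62) lie farthest left in the last.

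Whether the difference between the arms itself changed from phase to phase was tested as an interaction. From early to middle it shifted up for 0 members and down for 3 (Ppp1r15a, Atf6 and Syvn1), against 3.49% and 2.74% of all genes. From middle to late it shifted up for 1 (Edem1) and down for 1 (Sel1l), against 3.55% and 3.18%. With a lane term 0 members passed in either, where 241 and 59 genes of all did. Library totals left the early to middle shift at 0 up and 4 down, with 31.3% of all calls higher against 56% with TMM.

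Between 24 and 48 h, where each arm has 1 library per time and a change shared by the arms was not tested, Ddit3, Herpud1 and Dnajb9 were higher at 48 h in both arms and 6 folding genes were lower in the untreated arm. The 24 h and 48 h libraries were in lanes 1 and 3 untreated and in lanes 2 and 4 stimulated, so time and lane cannot be told apart here. Among the 33 members with a mean of at least 5 CPM, 4 were over 1.5-fold up and 6 over 1.5-fold down in the untreated arm, beside 7.73% and 5.29% of the 9581 genes at that level. In the stimulated arm 4 were up and 0 down, beside 8.18% and 3.43% of 9582 genes. Ddit3 was up 5.19-fold untreated and 4.45-fold stimulated, Herpud1 2.75-fold (98.7 to 272 CPM) and 2.72-fold (111 to 302 CPM), and Dnajb9 1.54-fold and 1.66-fold. Atf4 was up 1.94-fold untreated and 1.47-fold stimulated, and Sil1 1.26-fold and 1.53-fold.

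Down in the untreated arm were Hyou1, Sdf2l1, Manf, Creld2, Dnajb11 and Calr, with 48 h levels between 0.53 (Creld2) and 0.65 (Hyou1) times those at 24 h. In the stimulated arm the same ratios ran from 0.80 (Dnajb11) to 1.01 (Sdf2l1). The difference between the arms was not tested, as it rests on 4 libraries.

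Eif2ak3 (PERK) was not called in any comparison, although at 2 h it stood at 46.1 CPM stimulated against 71.6 CPM untreated (log2 -0.63). Its difference was -0.26 ± 0.10 (adjusted p = 0.084) in the middle and -0.22 ± 0.10 (adjusted p = 0.11) in the late phase. Ssr1, a subunit of the translocon-associated complex, lay between 428 and 646 CPM over both arms, and Sec61a1, the channel itself, between 285 and 521 CPM. P4hb, Pdia6, Canx, Dnajc3, Ern1 and Hspa5 were not called between the arms in any phase.

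Other genes of ER protein handling were taken from 5 lists, 124 of whose genes were tested. In the late phase 33 were higher and 13 lower under the cocktail, where 17.8% and 18.2% of all genes were called. The folding list had 13 of 27 higher and 3 lower and a median of 0.15. It holds Ero1l, the oxidase that recharges disulfide isomerases, which was higher by 0.74 ± 0.06 (389 against 223 CPM as late means), and its relative Ero1lb, which was lower by 1.07 (log2 -1.07 ± 0.15, 34.5 against 68.6 CPM). Uggt1, which tests glycoproteins for correct folding, was higher by 0.32 ± 0.05 and the isomerase Txndc5 differed by -0.46 ± 0.06. The marker sums given above differ between the arms in the same phase.

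In the list of other ERAD genes 4 of 18 were higher late and 0 lower, where 17.8% and 18.2% of all genes were called. Ube2g2, a conjugating enzyme of this pathway, was at 0.55 ± 0.11 and Erlec1, a lectin, at 0.23 ± 0.06. Of the genes of translocation and glycosylation 6 of 30 were higher and 1 lower, with Ssr2 at 0.34 ± 0.05, Sec11c at 0.26 ± 0.05 and Spcs2 at -0.24 ± 0.08. Of the genes of ER to Golgi transport 5 of 23 were higher and 4 lower, with Sec23a at 0.38 ± 0.05, Sar1a at 0.26 ± 0.04, Sec24a at -0.41 ± 0.10 and Sec24d at -0.37 ± 0.06.

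Among the 26 other stress signalling genes 5 were higher late, including Ddit4 (0.60 ± 0.12) and Fbxw7 (0.55 ± 0.08), and 5 were lower, including Map3k5 (-0.69 ± 0.11) and Creb3l2 (-0.65 ± 0.14). From the early to the middle phase 13 of these 26 fell and 2 rose in the stimulated arm, and 5 fell and 1 rose in the untreated arm. All genes gave 19.3% and 22.1% for the stimulated arm and 11.9% and 13.6% for the untreated arm, in the same order. The folding list had 3 of 27 higher and 1 lower untreated and 6 higher and 2 lower stimulated over that interval.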

How the data were processed

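Poly-A RNA (TruSeq) of 20 libraries was analysed from deposited counts per gene, for which the submitters' processing notes name STAR, HTSeq and the builds GRCm38.p3 and mm10. Versions and strand setting are not given in the sources used. Small RNA and a deposited sample sheet were not used. Columns left unmapped numbered 0.

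Counts were tested with edgeR 4.0.16 in R 4.3.3 (TMM, quasi-likelihood F-test, Benjamini-Hochberg over 12139 genes, threshold 0.05). Arms were compared by time as a factor plus treatment within phase in the 18 libraries after 0 min, and phases within an arm in a fit of 8 groups over all 20. SE is the log2 fold change divided by the square root of F. The scripts were tested on simulated data. A floor of 3 counts corresponds to 0.0492 to 0.0814 CPM and covers counting error only. Gene positions, exon lengths and overlaps came from GENCODE vM21 (GRCm38), promoters from RefSeq GRCm38.p6. Other gene models also overlapped 11.4% of the exon bases of Ppp1r15b, 9.25% of Manf, 8.16% of Sec61a1 and 8.05% of Eif2ak3. Emr1 and Igj stood for their current symbols.

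Members and lists were chosen with earlier results of these data known. Each member was accounted for by role, with values in every library for members called late, for the 2 largest called changes in each direction of other comparisons, and for Xbp1, Atf4, Ddit3 and Hspa5. Of the other lists the 2 largest called changes in each direction late were named. Alternatives were RLE scaling, library totals, DESeq2 1.42.0, no filter, at least 5 CPM, a lane term, moved phase limits, values relative to the 0 min pair, 1 arm alone and each time left out. Fits with unpaired times were added after seeing the data.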

Additional observations from a re-analysis of the deposited data

Results flagged for a closer look

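For 5 members the difference between stimulated and untreated libraries changed from one phase to another by the interaction test in edgeR (adjusted p under 0.05 over 12139 genes). From the early to the middle phase the log2 difference of Ppp1r15a changed by -0.80 ± 0.20 (SE, adjusted p = 0.039), that of Atf6 by -0.43 ± 0.10 (adjusted p = 0.03) and that of Syvn1 by -0.30 ± 0.07 (adjusted p = 0.031). From the middle to the late phase the difference of Sel1l changed by -0.51 ± 0.09 (adjusted p = 0.0086) and that of Edem1 by 0.24 ± 0.06 (adjusted p = 0.046). The change of Ppp1r15a is a return from a higher early level, and that of Sel1l carries it further below the untreated arm. Atf6 and Syvn1 did not differ past the test in the early phase (0.04 and -0.12, adjusted p = 0.82 and 0.26) and were lower in the middle phase. Of the 13 alternatives run, a lane term among them, 7 ended the calls of Ppp1r15a, Atf6 and Edem1, 6 that of Syvn1 and 2 that of Sel1l. With a lane term none of the 5 passed, and whether lane accounts for them was not tested.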

How the results depend on the processing

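Counts are of the 35 members called, and the cause of each shift was not tested. RLE scaling and the 5 CPM filter kept every count within 1.5 times of the values above. Between the arms, treatment in the early phase gave 2 members with no filter (747 of 28029). It gave 0 each with moved phase limits (62), relative to the 0 min pair (0), with times unpaired (5) and with times unpaired plus lane (1). The middle phase gave 3 with moved limits (456) and 0 in each of those other 3 (43, 250 and 25). The late phase gave 2 relative to the 0 min pair (847), 3 unpaired (1475) and 0 unpaired plus lane (284), where Hsp90b1 alone turned, to 0.1522. The middle minus early difference gave 5 in DESeq2 (1103), 6 with no filter (1401 of 28029), and 0 with lane (241) or with moved limits (2). The late minus middle difference gave 0 with lane (59) and 1 with moved limits (912). From early to middle, moved limits gave 0 in each arm (0 untreated and 99 stimulated). From middle to late the untreated count was 5 with library totals (1462), 6 in DESeq2 (2223) and 1 with no filter (1043 of 28357). It was 0 with lane (1), 6 with moved limits (3118) and 1 in that arm alone (1318). The stimulated count was 10 with moved limits (4652) and 3 in that arm alone (1324).

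Leaving out one time gave 0 to 1 members (8 to 76 of all genes) in the early phase, 3 (933 to 1695) in the middle and 7 to 9 (3088 to 4290) in the late phase. It gave 0 to 2 (141 to 695) for middle minus early and 0 to 5 (176 to 1664) for late minus middle. Within arms it gave 12 to 19 (690 to 3444) and 0 to 7 (93 to 3843) untreated, and 19 to 23 (3163 to 5380) and 2 to 11 (808 to 4846) stimulated.

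Library totals moved the median of all genes by -0.13 in the stimulated early to middle change. Their effect on the share of higher calls stands beside each count. No paired analysis was possible because samples bear no replicate number in their labels, beyond the pairing of the arms by time that the comparisons of the arms already use. A lane term could be fitted with paired times for the interactions alone.

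With 1 animal per arm and lanes split by arm, animal, lane and cocktail cannot be told apart, and phases mix times that differ.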
